A study of Mus musculus with 15 samples.

Results

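The mitosis and spindle genes are 56 mouse genes picked by symbol for their known part in chromosome condensation, spindle assembly, chromosome segregation and cytokinesis. All 56 had a row in both deposited FPKM tables, of 11262 genes in the table of naïve and activated cells and 11211 genes in the table of cytotoxic T lymphocytes (CTL), with 10637 genes in both. The choice used no measured value, but it was made with earlier results of these data known. FPKM counts fragments per length of exon and library size, so it compares genes per length and gives a share of the library, not an amount per cell.

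The cells were P14 CD8+ T cells, which carry a transgenic T cell receptor (TCR) for the gp33–41 peptide of the lymphocytic choriomeningitis virus glycoprotein. Naïve cells from the lymph nodes of female mice were sorted ex vivo as CD62L high and CD44 low. TCR activated cells were cultured for 24 h with gp33–41 at 100 ng/ml, IL-12 at 2 ng/ml and IL-2 at 20 ng/ml, and the third group had the same culture with 10 µM IC87114 (PI3Kdi), an inhibitor of the PI3K catalytic subunit p110δ. Both activated groups were sorted as live CD8+ cells, each of the 3 replicates was a pool of 3 mice divided between these 3 groups, and all of these cells shared the P14 receptor. CTL were grown from P14 mice by 48 h of activation and 4 days in 20 ng/ml IL-2, and on day 6 they were washed and kept for 24 h with 20 ng/ml IL-2 or without it, in 3 replicates each. The activated groups and CTL are in vitro models with added cytokines. Nothing in the labels says whether CTL replicates came from separate mice. The methods name 3 mice for 3 biological replicates of P14 CTL, but do not describe the CTL with and without IL-2. The p-values for CTL thus measure only the spread between these samples, which may be technical. The treatment labels of CTL in IL-2 name another interleukin in replicates 2 and 3, and these libraries were grouped by their titles.

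Naïve T cells rest outside the cell cycle, and after antigen recognition they grow for about a day before their first division. Entry into mitosis is driven by the kinase CDK1 with cyclins A and B, which the CDC25 phosphatases switch on. Polo and Aurora kinases then build the spindle, the spindle checkpoint holds cells until chromosomes are attached, and the anaphase promoting complex ends mitosis by marking cyclin B and securin for destruction. Most mitotic genes are held silent in resting cells by the DREAM complex and are switched on late in the cycle by B-MYB and FOXM1 bound to MuvB proteins, which reach their promoters through a short element called the cell cycle homology region (CHR), often with CCAAT boxes bound by NF-Y.

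Promoter letters of 7 of the genes are given first, because they show the CHR and CCAAT letters that most of the genes with a window shared, and a window without the CHR letters (Cdc25b). Each stretch runs from 100 bases before to 50 bases after a RefSeq start site (GRCm38.p6, the mm10 build), 5′ to 3′ on the strand of the gene, and capitals mark the CHR letters TTTGAA and the CCAAT box on either strand (CCAAT or ATTGG).
Cdk1 (chr10:69352863-69353012, minus strand): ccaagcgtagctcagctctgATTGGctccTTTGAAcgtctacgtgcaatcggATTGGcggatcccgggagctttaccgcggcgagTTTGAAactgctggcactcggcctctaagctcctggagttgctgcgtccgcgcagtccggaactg
Ccnb2 (chr9:70421505-70421654, minus strand): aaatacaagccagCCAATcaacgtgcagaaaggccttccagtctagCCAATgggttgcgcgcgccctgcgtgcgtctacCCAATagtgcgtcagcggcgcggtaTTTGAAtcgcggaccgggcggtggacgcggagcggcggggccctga
Plk1 (chr7:122159335-122159484, plus strand): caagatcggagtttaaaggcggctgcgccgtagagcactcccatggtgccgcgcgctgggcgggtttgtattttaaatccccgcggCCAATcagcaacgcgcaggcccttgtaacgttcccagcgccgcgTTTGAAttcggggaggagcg
Cdc20 (chr4:118437294-118437443, minus strand): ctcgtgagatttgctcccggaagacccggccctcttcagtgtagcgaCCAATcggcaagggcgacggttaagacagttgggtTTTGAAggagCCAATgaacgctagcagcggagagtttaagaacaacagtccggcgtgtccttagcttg
Hmmr (chr11:40733388-40733537, minus strand): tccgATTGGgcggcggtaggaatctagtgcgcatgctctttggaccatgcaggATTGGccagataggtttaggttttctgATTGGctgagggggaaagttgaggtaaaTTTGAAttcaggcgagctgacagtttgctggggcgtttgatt
Kif23 (chr9:61946750-61946899, minus strand): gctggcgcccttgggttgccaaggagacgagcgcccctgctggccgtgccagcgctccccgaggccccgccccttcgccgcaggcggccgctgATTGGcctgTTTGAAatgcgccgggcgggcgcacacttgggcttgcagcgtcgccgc
Cdc25b (chr2:131186848-131186997, plus strand): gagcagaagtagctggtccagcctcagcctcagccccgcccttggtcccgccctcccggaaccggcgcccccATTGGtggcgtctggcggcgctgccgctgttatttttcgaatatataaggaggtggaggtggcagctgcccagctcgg

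Cdc25b held no TTTGAA in its window, which starts from a RefSeq start site 512 bases inside the outer edge of the gene. The related letters TTCGAA lie just after that start site. In Ccnb2 the CHR letters began 5 bases after the start site and followed 3 CCAAT boxes, and in Plk1 they began 31 bases after it. RefSeq windows from 250 bases before to 50 bases after a start site were given for 47 of the 56 genes, whereas Ccna2, Cdc25c, Aurkb, Incenp, Tpx2, Kif20a, Spc24, Smc4 and Foxm1 had none. TTTGAA on either strand lay in the windows of 35 of the 47 genes (74.5%), against 14.1% of the 8404 genes of the naïve and activated table that had a window and 20.2% of 27025 RefSeq genes. Within 50 bases of the start site the share was 68.1% for the 47 genes and 3.7% for the genes of the table. A CCAAT box was in 74.5% of the 47 genes and 43.6% of the table, and both CHR and CCAAT letters were in 63.8% and 7.1%. The letters GGCGGG or CCCGCC of E2F sites were nearly as common in the table (68.9%) as in the 47 genes (76.6%). These are letter matches, given as descriptions with no test, and not measurements of binding.

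**Figure D1:**
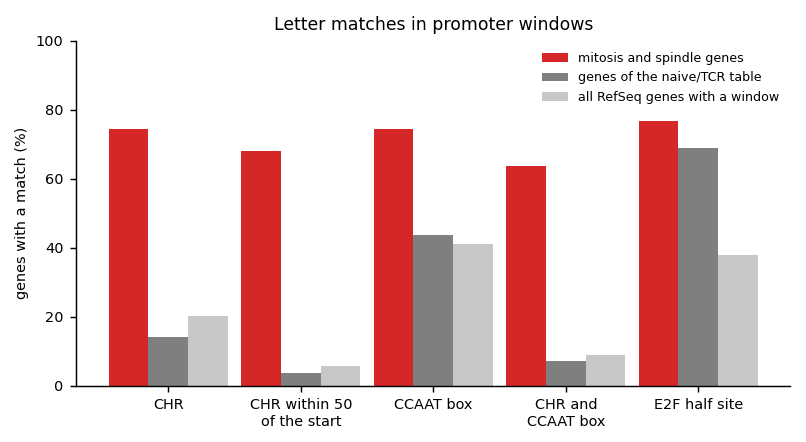
Share of genes (percent, y axis) with each set of letters in the RefSeq promoter window, for the 47 mitosis and spindle genes with a window (red), genes of the naïve and activated table (dark grey) and all RefSeq genes with a window (light grey). The CHR bars are 74.5%, 14.1% and 20.2%, whereas the E2F bars of the 47 genes and of the table are 76.6% and 68.9%.

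Summed over the 56 genes, the level was 329.2, 336.9 and 320.9 FPKM in the naïve libraries and 2877, 2586 and 2317 FPKM in the TCR activated libraries. With PI3Kdi the sums were 2028, 1589 and 1851 FPKM. The activated sums were 7.88 times the naïve sums on average without PI3Kdi and 5.54 times with it, and no sum with PI3Kdi reached the lowest sum without it. In CTL kept in IL-2 the sums were 2895, 3124 and 3252 FPKM, and without IL-2 they were 2717, 2476 and 2229 FPKM, all below the lowest library with IL-2. As a share of the whole library the sums came to 0.0721% ± 0.00264 (SD, n = 3) for naïve cells, 0.543% ± 0.0704 for TCR activation, 0.403% ± 0.0472 with PI3Kdi, 0.627% ± 0.0197 in CTL with IL-2 and 0.549% ± 0.054 without it. In such bulk samples, fewer cells in mitosis and less of these mRNA per cell cannot be told apart. The tables were normalised separately, so levels of CTL and of the other groups stand side by side without a test.

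**Figure D2:**
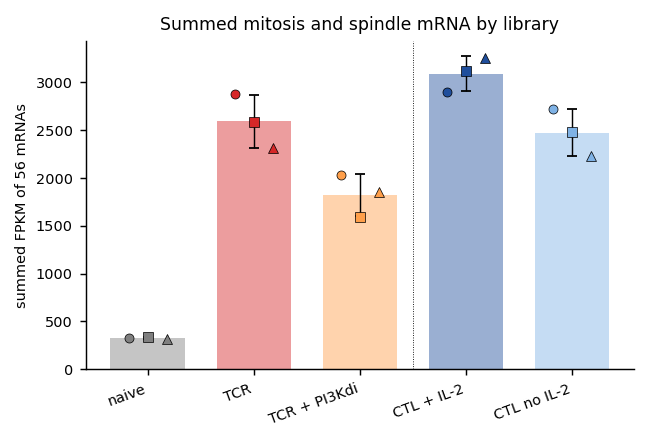
Summed FPKM of the 56 mRNA (y axis) in each of the 15 libraries, with circle, square and triangle for replicates 1, 2 and 3 and bars for the group mean ± SD. The dotted line parts the separately normalised tables. Naïve sums lie between 320.9 and 336.9 and all activated and CTL sums lie between 1589 and 3252.

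The first comparison asked how activation changed these mRNA. Each gene was tested with limma on log2(FPKM + 0.1) with Benjamini-Hochberg adjustment across the whole table, and a change was called where the adjusted p was under 0.05 and the groups differed by more than 2-fold. After 24 h of activation, 53 of the 56 mRNA (94.6%) rose and 0 fell, where 25.0% of all genes of the table rose. At an unadjusted p under 0.05 the limma fit also had 0 of the 56 lower. The median log2 fold change was 5.75 over the 56 genes and 0.005 over all genes. For these 53 genes every activated library lay above every naïve library, which held for 40.7% of all genes, and 40.0% of all genes lay below in the same way. The naïve values of many of these genes were near 0, so their fold changes depend on the pseudocount: with a pseudocount of 1 the median was 4.28, and fold changes on this scale understate the change of low genes.

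**Figure D3:**
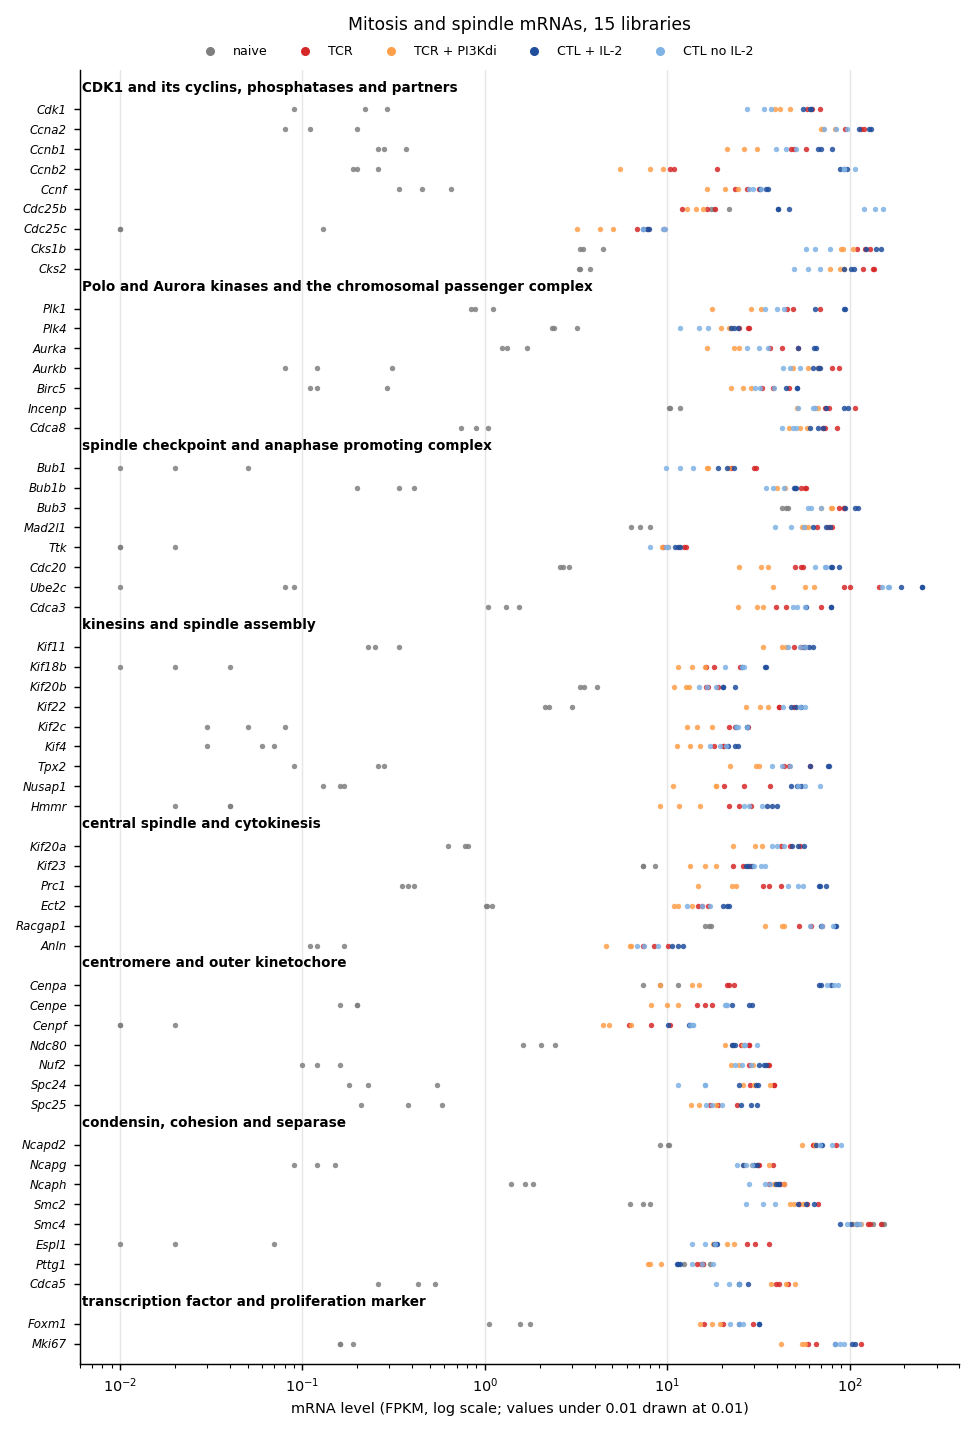
Level of each of the 56 mRNA (FPKM, log axis) in every library, grouped by role, with a point for each library coloured by group. The naïve points of most genes lie below 1 FPKM and the activated and CTL points above it, while Smc4, Bub3, Racgap1, Cdc25b, Pttg1 and Incenp are above 10 FPKM in naïve cells.

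CDK1 and its partners rose in 8 of 9 cases. Ccna2 (cyclin A2) was at 0.08, 0.11 and 0.2 FPKM in naïve cells and 119.5, 116.0 and 94.2 FPKM in TCR activated cells, a log2 fold change of 8.93 ± 0.18 (SE, limma adjusted p = 1.3e-11). Cks2, a small CDK binding subunit, had the highest activated level of this group, with 136.0, 133.8 and 118.9 FPKM after 3.77, 3.34 and 3.29 FPKM in naïve cells. Cdk1 itself went from 0.22, 0.29 and 0.09 FPKM to 58.3, 69.1 and 62.5 FPKM. Its main mitotic partner Ccnb1 (cyclin B1) reached 49.4, 57.9 and 47.8 FPKM, whereas Ccnb2 (cyclin B2) reached 18.8, 10.4 and 10.9 FPKM. The exception was Cdc25b, a phosphatase that activates CDK1, at 18, 17.4 and 21.7 FPKM in naïve cells and 18.2, 16.6 and 12.1 FPKM after activation. These ranges overlapped, and the log2 fold change of -0.30 ± 0.15 did not pass the test (limma, adjusted p = 0.0912).

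All 7 Polo and Aurora kinase and chromosomal passenger genes rose, with a median log2 fold change of 5.69. Aurkb, the kinase of the passenger complex that corrects faulty attachments, went from 0.12, 0.31 and 0.08 FPKM to 87.3, 80.4 and 68.1 FPKM (log2 fold change 8.27 ± 0.26, limma adjusted p = 2.1e-10). Its scaffold Incenp, the highest of the group after activation, was already at 10.4, 10.2 and 11.8 FPKM in naïve cells and reached 107.4, 76.8 and 73.5 FPKM. Plk1, the polo kinase of mitotic entry, rose from 0.84, 0.88 and 1.11 FPKM to 69.1, 49.0 and 45.3 FPKM. The passenger complex thus combined a kinase close to 0 and a scaffold at about 10 FPKM in the same resting cells.

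All 8 spindle checkpoint and anaphase promoting complex genes rose. Ube2c, the E2 enzyme that starts ubiquitin chains for the anaphase promoting complex, had the largest change of the 56 genes, from 0, 0.08 and 0.09 FPKM to 144.4, 100.2 and 93.3 FPKM (log2 fold change 9.52 ± 0.27, limma adjusted p = 1.3e-10). Bub3, a checkpoint protein with other nuclear partners, had the smallest change among the 53, from 44.8, 42.4 and 45.7 FPKM to 93.5, 87.9 and 93.5 FPKM (1.05 ± 0.08, adjusted p = 2.2e-07). Its partner kinase Bub1 was at 0.05, 0.02 and 0 FPKM in naïve cells and 30.6, 29.9 and 22.4 FPKM in activated cells. Partners in a shared checkpoint complex thus started from very unlike naïve levels.

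The 9 kinesin and spindle assembly genes had the highest median log2 fold change of the 8 roles, 7.18. Kif11, the motor that pushes spindle poles apart, went from 0.34, 0.23 and 0.25 FPKM to 57.0, 54.1 and 49.5 FPKM. Hmmr, a spindle-associated protein that also binds hyaluronan, went from 0.04, 0.04 and 0.02 FPKM to 28.7, 24.6 and 21.7 FPKM. All 6 central spindle and cytokinesis genes rose as well, with a lower median of 4.50. In this group Racgap1, a GTPase activating protein of the centralspindlin complex, went from 17.0, 16.1 and 17.4 FPKM to 70.2, 61.1 and 53.0 FPKM, and its partner motor Kif23 from 7.4, 8.62 and 7.37 FPKM to 28.5, 25.9 and 22.9 FPKM. Both centralspindlin subunits were thus well above 1 FPKM before activation.

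All 7 centromere and outer kinetochore genes rose, with a median of 5.81. Spc24, a subunit of the NDC80 complex that holds microtubule ends, had the highest activated level of this group, 38.6, 38.7 and 28.5 FPKM after 0.23, 0.55 and 0.18 FPKM. Cenpa, the histone H3 variant of centromeres, had the smallest change, from 9.1, 11.4 and 7.33 FPKM to 23.2, 21.2 and 21.8 FPKM (1.26 ± 0.19, limma adjusted p = 8e-05).

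Condensin, cohesion and separase genes rose in 6 of 8 cases and had the lowest median of the 8 roles, 3.79. Espl1 (separase, the protease that opens cohesin) went from 0.02, 0.01 and 0.07 FPKM to 36.3, 30.3 and 27.3 FPKM. Pttg1 (securin, the inhibitor of separase) was at 12.4, 15.7 and 17.2 FPKM before and 14.6, 15.3 and 15.7 FPKM after activation, so that the groups overlapped and the log2 fold change was 0.02 ± 0.13 (limma, adjusted p = 0.885). Smc4, the shared ATPase subunit of condensins, was the highest of all 56 genes in naïve cells at 150.1, 154.9 and 133.8 FPKM and stayed within that range or just below it at 129.8, 148.0 and 126.4 FPKM (-0.12 ± 0.09, adjusted p = 0.24). Its partner Smc2 went from 8.08, 7.34 and 6.26 FPKM to 52.9, 66.9 and 58.5 FPKM. The RefSeq span of Smc4 holds Mir15b and Mir16-2, and whether reads of that region were separated was not tested.

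Mki67, the proliferation marker Ki-67 that coats mitotic chromosomes, went from 0.16, 0.16 and 0.19 FPKM to 115.0, 65.1 and 59.5 FPKM, with replicate 1 well above the other activated libraries. Foxm1, the transcription factor of late cell cycle genes, went from 1.55, 1.06 and 1.78 FPKM to 29.4, 20.2 and 16.0 FPKM.

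The second comparison asked what PI3K p110δ inhibition did to this response. Of the 56 mRNA, 4 fell (7.14%) and 0 rose, where 2.10% of all genes of the table fell and 3.04% rose. They were the mitotic kinases Plk1 and Aurka, the ubiquitin enzyme Ube2c and the spindle protein Hmmr. The shift below the fold limit was broad: 54 of the 56 log2 fold changes were negative, their median was -0.56 against -0.008 over all genes, and 25 of the 56 (44.6%) were lower at an adjusted p under 0.05 with no fold limit, where 8.19% of all genes were, and 0 were higher, where 9.35% of all genes were. At an unadjusted p under 0.05, 42 were lower and 0 higher. Shares of all genes were not computed at an unadjusted p. In 42 of the 56 (75.0%) every library with PI3Kdi lay below every library without it, which held for 18.6% of all genes, and in 0 every library lay above, which held for 18.1%. The 4 calls rested on particular libraries: without the PI3Kdi library of replicate 2 the count was 0, without the TCR library of replicate 1 it was 1, and without replicate 3 of every group it was 9, while 54 of the 56 values were negative without either of those single libraries. The 25 on the adjusted p alone, and the counts by role that follow, also depended on libraries and settings: there were 15 without replicate 1, 2 without replicate 2, 19 without replicate 3, 16 without the TCR library of replicate 1, 12 without the PI3Kdi library of replicate 2, and 37 or 19 with a pseudocount of 1 or 0.01.

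Plk1 was at 69.1, 49.0 and 45.3 FPKM without PI3Kdi and 32.8, 17.7 and 28.9 FPKM with it. All 3 libraries with the inhibitor lay below the lowest one without it, and the log2 fold change was -1.06 ± 0.23 (SE, limma adjusted p = 0.00922). Aurka, the kinase of spindle poles, was at 52.2, 42.8 and 36.7 FPKM without and 24.7, 16.6 and 23.2 FPKM with PI3Kdi (-1.03 ± 0.18, adjusted p = 0.00301). The RefSeq span of Aurka overlaps that of Cstf1. Ube2c was at 63.7, 37.9 and 57.3 FPKM with PI3Kdi, all below the 93.3 FPKM of the lowest library without it (-1.09 ± 0.27, limma adjusted p = 0.0186). With a pseudocount of 0.01 the log2 fold change of Ube2c was again -1.09, with an adjusted p of 0.33. With a pseudocount of 1 Aurka was just short of the fold limit. Hmmr was at 15.2, 9.12 and 11.6 FPKM with PI3Kdi after 28.7, 24.6 and 21.7 FPKM without it (-1.08 ± 0.19, limma adjusted p = 0.00342). These genes had lower levels with PI3Kdi and did not return to naïve levels, which were near or below 1 FPKM.

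Among CDK1 and its partners, Ccnb1 stood just inside the fold limit with 31.1, 21.2 and 26.4 FPKM under PI3Kdi (-0.99 ± 0.16, limma adjusted p = 0.00188). Cks2 also passed the adjusted p alone (-0.58 ± 0.10, adjusted p = 0.0024), and the other 7 genes of the group did not. Cdk1 was at 46.9, 38.8 and 41.6 FPKM with PI3Kdi, below all 3 libraries without it, but its value of -0.58 ± 0.22 did not pass (adjusted p = 0.0942). Cdc25b, at 15.8, 12.8 and 14.4 FPKM, overlapped the activated libraries (-0.10 ± 0.15, adjusted p = 0.696).

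Central spindle and cytokinesis genes had the lowest median of the 8 roles, -0.65, and 4 of 6 passed the adjusted p alone. Prc1, which bundles the microtubules of the central spindle, was at 23.8, 14.7 and 22.7 FPKM with PI3Kdi after 42.3, 36.3 and 33.6 FPKM (-0.90 ± 0.18, limma adjusted p = 0.00596). Among kinesin and spindle assembly genes 6 of 9 passed the adjusted p alone (median -0.57), among spindle checkpoint and anaphase promoting complex genes 5 of 8 (median -0.48), and among Polo, Aurora and passenger genes 4 of 7 (median -0.54). Cdc20, the activator of the anaphase promoting complex, was at 32.8, 24.8 and 35.6 FPKM with PI3Kdi after 55.2, 50 and 53.9 FPKM (-0.78 ± 0.13, adjusted p = 0.00194). Its checkpoint inhibitor Bub1b was at 50.5, 40.1 and 44.5 FPKM after 56.7, 57.9 and 54.1 FPKM, and its value of -0.33 ± 0.17 did not pass (adjusted p = 0.232). Within libraries the Cdc20 level was 0.944 ± 0.0711 (SD, n = 3) of the Bub1b level without PI3Kdi and 0.69 ± 0.0969 with it, and these ratios did not overlap.

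Condensin, cohesion and separase genes had the median nearest to 0, -0.21. Ncaph, the kleisin of condensin I, was at 41.3, 43.9 and 36.1 FPKM without and 43.9, 38.5 and 39.0 FPKM with PI3Kdi (adjusted p = 0.988). Cdca5 (sororin, which protects cohesin) was at 39.5, 46.2 and 41.2 FPKM without and 49.9, 37.0 and 44.6 FPKM with it (0.04 ± 0.19, limma adjusted p = 0.905). Both genes overlapped between the groups and their replicates spanned values on either side of each other. Pttg1 was different within this role, at 7.87, 9.26 and 8.02 FPKM with PI3Kdi after 14.6, 15.3 and 15.7 FPKM (-0.85 ± 0.13, adjusted p = 0.00121), a difference short of the fold limit. Smc4 also passed the adjusted p alone, at 115.1, 103.8 and 107.9 FPKM (-0.30 ± 0.09, limma adjusted p = 0.0392).

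Of the 7 centromere and kinetochore genes only Cenpa (-0.84 ± 0.19, limma adjusted p = 0.0127) and Cenpe, the kinesin of kinetochores (-0.71 ± 0.16, adjusted p = 0.0117), passed the adjusted p alone. Spc24 was at 36.4, 30.1 and 26.1 FPKM with PI3Kdi and overlapped the activated libraries (-0.19 ± 0.27, adjusted p = 0.681). Foxm1 (-0.29 ± 0.23) and Mki67 (-0.58 ± 0.22) did not pass, and Mki67 was at 56.7, 42.3 and 55.1 FPKM, just below the lowest activated library at 59.5 FPKM. The difference between roles was not tested.

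**Figure D4:**
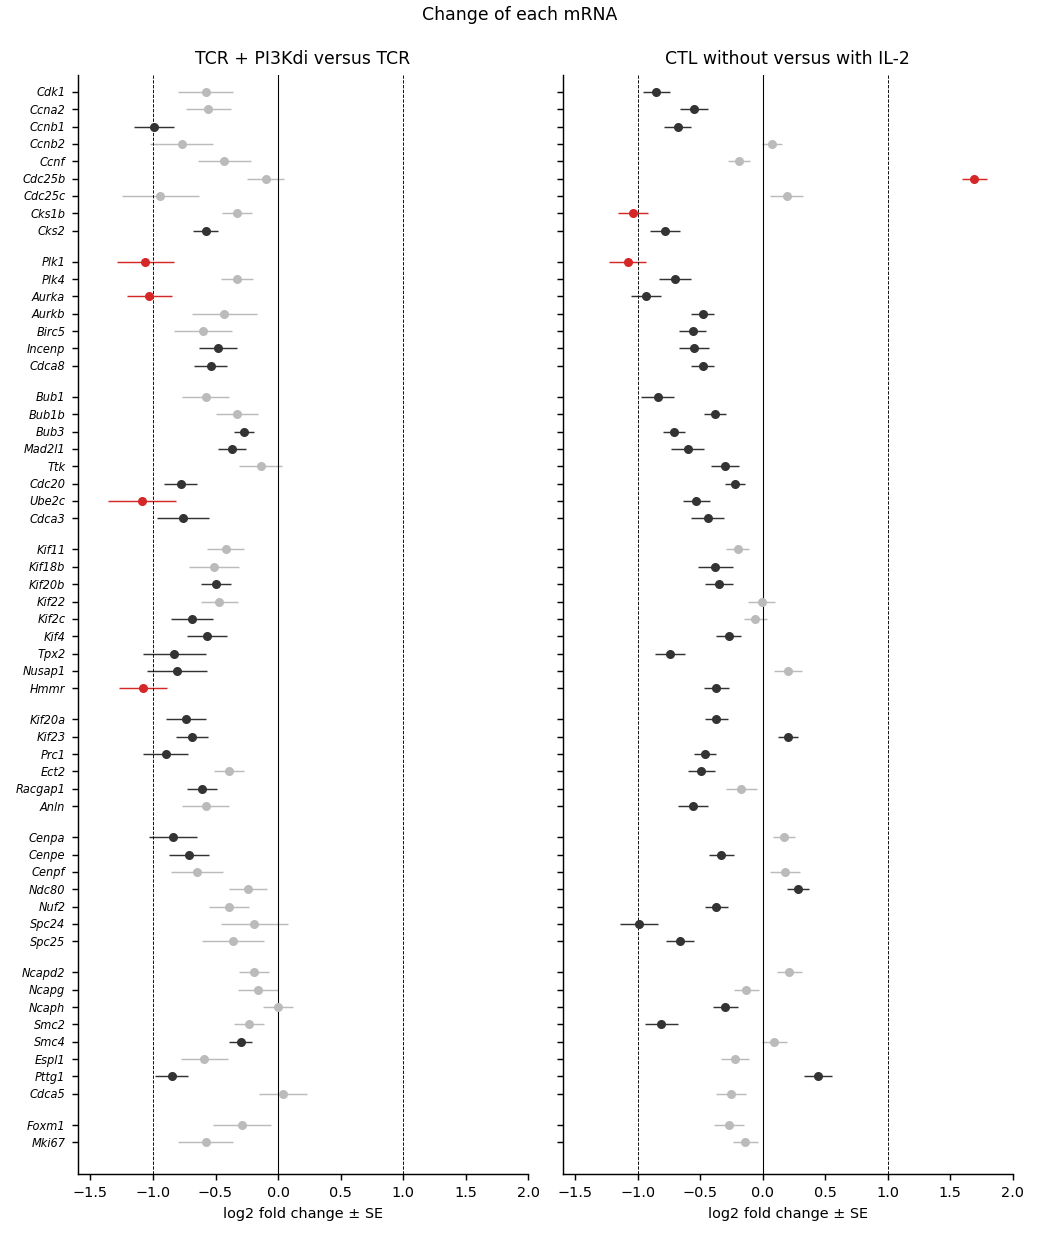
Log2 fold change ± SE of each of the 56 mRNA (x axis) with PI3Kdi against TCR activation alone (left) and in CTL without against with IL-2 (right), in the order of roles, with dashed lines at 2-fold. Red points passed the adjusted p and the fold limit, dark points the adjusted p alone and light grey points neither. On the left 54 of 56 points are below 0, and on the right 45 are, with Cdc25b at 1.69.

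Compared with naïve cells, activation in the presence of PI3Kdi still raised 51 of the 56 mRNA (91.1%), where 23.6% of all genes of the table rose, and 0 fell (3 were lower in the limma fit at an unadjusted p under 0.05). This comparison shares its libraries with the first and second ones. The median log2 fold change was 5.08. Ube2c (8.43 ± 0.27, limma adjusted p = 3.9e-10), Ccna2 (8.37 ± 0.18) and Aurkb (7.84 ± 0.26) again had the largest values. The 5 genes that were not called were Pttg1 (-0.83 ± 0.13, adjusted p = 0.0001), Smc4 (-0.42 ± 0.09), Cdc25b (-0.40 ± 0.15), Cenpa (0.43 ± 0.19, adjusted p = 0.0597) and Bub3 (0.78 ± 0.08). Pttg1 with PI3Kdi lay below all 3 naïve libraries, so this inhibitor of separase was lower than in resting cells while Espl1 was at 23.2, 17.8 and 21.2 FPKM against at most 0.07 FPKM in naïve cells. Kif23 was called at 1.02 ± 0.13 but fell short of the fold limit with a pseudocount of 1 and without replicate 1 or 3.

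The fourth comparison asked what the loss of IL-2 for 24 h did in CTL. Only 3 of the 56 mRNA passed both limits: Cdc25b rose (1.79%), where 14.3% of all genes of the CTL table rose, and Plk1 and Cks1b fell (3.57%), where 13.9% of all genes fell. The share that passed both limits was thus below that of the whole table. Without a fold limit 35 of the 56 (62.5%) were lower, where 36.6% of all genes were, and 4 (7.14%) were higher, where 35.2% of all genes were. Without replicate 2 these 39 in both directions became 25. The median log2 fold change was -0.37 against -0.001 over all genes, and 45 of the 56 values were negative. In 34 of the 56 (60.7%) every library without IL-2 lay below every library with it, against 38.5% of all genes, and in 4 (7.14%) every one lay above, against 37.6%.

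Cdc25b was at 40.3, 46.3 and 40.3 FPKM with IL-2 and 153.1, 137.8 and 119.2 FPKM without it. Every library without IL-2 was above every other library of the study, and the log2 fold change was 1.69 ± 0.10 (limma, adjusted p = 1e-06). Cdk1, the kinase that this phosphatase activates, was at 61.2, 55.4 and 60.7 FPKM with and 37.3, 34.0 and 27.4 FPKM without IL-2 (-0.85 ± 0.11, adjusted p = 0.00011). Within libraries the Cdc25b level was 0.72 ± 0.102 (SD, n = 3) of the Cdk1 level with IL-2 and 4.17 ± 0.158 without it. Cks1b, the CDK subunit that also serves SCF-SKP2, fell from 122.5, 139.1 and 147.8 FPKM to 78.3, 64.5 and 57.8 FPKM (-1.04 ± 0.12, limma adjusted p = 4e-05). Ccnb2 was at 88.3, 93.0 and 96.2 FPKM with and 106.4, 92.9 and 92.7 FPKM without IL-2, with overlap between the groups (0.07 ± 0.08, adjusted p = 0.451).

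All 7 Polo, Aurora and passenger genes and all 8 spindle checkpoint and anaphase promoting complex genes were lower at an adjusted p under 0.05 with no fold limit, with medians of -0.56 and -0.49. Plk1 fell from 64.9, 93.2 and 93.8 FPKM to 43.7, 39.8 and 34.5 FPKM (-1.08 ± 0.15, limma adjusted p = 0.00013). Aurka was at 52.2, 65.5 and 63.9 FPKM with and 35.5, 32.0 and 27.4 FPKM without IL-2 (-0.93 ± 0.12, adjusted p = 8.5e-05), just inside the fold limit. Bub1 was at 21.3, 19.1 and 23.1 FPKM with and 13.9, 11.8 and 9.89 FPKM without IL-2 (-0.84 ± 0.13, limma adjusted p = 0.00032). In each of these 3 genes the groups did not overlap. Without replicate 3, or without its library lacking IL-2 alone, the values of Plk1 and Cks1b were short of the fold limit and the count of mRNA that fell was 0. Without replicate 1, or without its library with IL-2 alone, the count was 4, with Aurka and Spc24 added. Without replicate 2 the count was 2, with Spc24 in place of Cks1b.

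Kinetochore and condensin genes had values in both directions. Spc24 was at 24.9, 31.4 and 30.6 FPKM with and 16.2, 16.2 and 11.4 FPKM without IL-2 (-0.99 ± 0.15, limma adjusted p = 0.00025), but Ndc80, the microtubule binding subunit of the same complex, was at 23.6, 22.6 and 23.0 FPKM with and 31.2, 26.6 and 26.5 FPKM without it (0.28 ± 0.09, adjusted p = 0.0185). Smc2 was at 57.9, 52.4 and 64.1 FPKM with and 39.1, 33.7 and 27.1 FPKM without IL-2 (-0.81 ± 0.13, limma adjusted p = 0.00042), whereas its partner Smc4 overlapped between the groups at 101.7, 88.7 and 109.2 FPKM with and 108.7, 96.9 and 113.7 FPKM without it (0.09 ± 0.10, adjusted p = 0.407). Subunits that work in 1:1 complexes thus had unlike values in the same libraries. Ncapd2, a HEAT subunit of condensin I, was at 65.1, 69.7 and 71.0 FPKM with and 90.2, 80.2 and 68.8 FPKM without IL-2 and did not pass (0.21 ± 0.10, limma adjusted p = 0.0902). Pttg1 was at 11.8, 11.4 and 11.3 FPKM with and 17.9, 15.6 and 13.7 FPKM without IL-2, with no overlap (0.44 ± 0.11, adjusted p = 0.00527). Kif23, at 29.1, 27.2 and 27.9 FPKM with and 34.4, 32.8 and 29.9 FPKM without IL-2, was the other gene higher on the adjusted p alone (0.20 ± 0.08, adjusted p = 0.0487). Mki67 was at 103.0, 83.6 and 107.6 FPKM with and 88.7, 93.4 and 83.4 FPKM without IL-2, and its groups overlapped (-0.14 ± 0.10, limma adjusted p = 0.241).

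**Figure D5:**
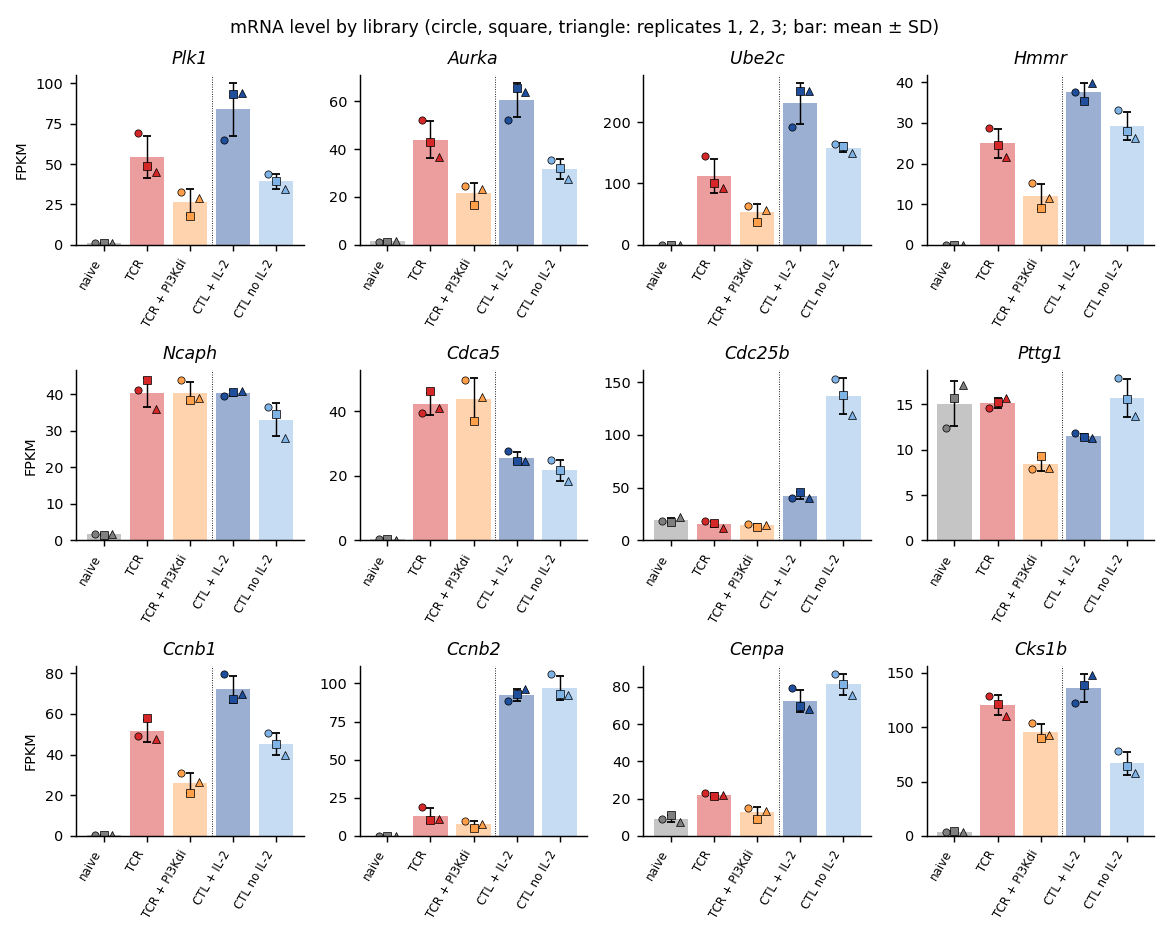
FPKM (y axis, from 0) of 12 mRNA in each library, with circle, square and triangle for replicates 1, 2 and 3 and bars for the group mean ± SD. The dotted line parts the separately normalised tables. Plk1, Aurka, Ube2c and Hmmr are lower with PI3Kdi than without it, Ncaph and Cdca5 overlap between those groups, and Cdc25b is at 119.2 to 153.1 FPKM in CTL without IL-2.

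Set side by side, the 56 genes had their highest group mean in CTL with IL-2 in 29 cases, in TCR activated cells in 13, in CTL without IL-2 in 11, with PI3Kdi in 2 (Ncaph and Cdca5) and in naïve cells in 1 (Smc4). The mean of CTL with IL-2 over that of TCR activated cells ranged from 0.591 for Espl1 to 6.9 for Ccnb2. Ccnb2 had means of 13.4 FPKM in TCR activated cells and 92.5 FPKM in CTL with IL-2, and Cenpa had 22.1 and 72.4 FPKM. A ratio taken within each library does not depend on the scaling between tables. Ccnb2 was 0.263 ± 0.105 (SD, n = 3) of Ccnb1 in TCR activated cells, 0.29 ± 0.027 with PI3Kdi, 1.29 ± 0.158 in CTL with IL-2 and 2.17 ± 0.151 without it. The B cyclins thus changed order, with Ccnb1 the higher in both activated groups and Ccnb2 the higher in every CTL library. The time since activation and the cytokines differ between these tables and cannot be told apart. According to the methods, the naïve and activated libraries were sequenced in the same lane, which also held an unpublished dataset. Whether the CTL libraries shared that lane or another is not given in the sources used here.

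In the 4 groups of cultured cells, but not in naïve cells, most of the 56 genes shared the same highest and the same lowest library. Among TCR activated libraries replicate 1 was the highest for 39 of the 56 genes and replicate 3 the lowest for 44. With PI3Kdi replicate 1 was the highest for 50 and replicate 2 the lowest for 52, and in CTL without IL-2 replicate 1 was the highest for 48 and replicate 3 the lowest for 52, while over all genes no library of any group was the highest or lowest in more than 39.7%. In CTL with IL-2 replicate 3 was the highest and replicate 1 the lowest for 33 each, and in naïve cells the highest library was replicate 1, 2 or 3 for 18, 14 and 22 genes and the lowest for 11, 17 and 24. Counts over the 56 genes do not add up independent observations. In same-numbered pairs of libraries the median log2 ratio of PI3Kdi to TCR was -0.54, -0.73 and -0.35, with 52, 56 and 50 of the 56 genes lower, and that of CTL without to with IL-2 was -0.16, -0.37 and -0.56, with 39, 43 and 49 lower. Median values of the 35 genes with CHR letters and the 12 without were 5.60 and 5.50 after activation, -0.57 and -0.58 with PI3Kdi, and -0.30 and -0.47 without IL-2, given as descriptions.

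Other genes of the pathway were taken from lists by role, which were chosen with earlier results of these data known. Those named are mostly the largest changes of each list. Of 77 other mitotic genes with a row, 60 (77.9%) rose after activation, where 25.0% of all genes did, and 0 fell (1 was lower in the limma fit at an unadjusted p under 0.05), with a median log2 fold change of 4.39. The largest values were those of Pbk, a mitotic kinase (8.43 ± 0.21), Shcbp1, a midbody protein (7.82 ± 0.23), and Top2a, topoisomerase II (7.15 ± 0.11). With PI3Kdi 0 of the 77 rose (0 also at an unadjusted p under 0.05). The 2 that fell (2.60%, close to the 2.10% of all genes) were Gas2l3 (-1.31 ± 0.40, limma adjusted p = 0.0473) and Psrc1 (-1.14 ± 0.30, adjusted p = 0.026). On the adjusted p alone 14 of the 77 were lower, where 8.19% of all genes were, and 0 were higher, where 9.35% were. In the limma fit 25 were lower at an unadjusted p under 0.05, for which no share of all genes was computed. The median log2 fold change of the 77 was -0.29. Top2a was at 191.7, 211.4 and 187.1 FPKM without and 194.0, 155.5 and 181.1 FPKM with PI3Kdi and overlapped. Without IL-2, 6 of the 77 (7.79%) fell and Psrc1 rose (1.30%), both shares below the 13.9% and 14.3% of all genes. With no fold limit 43 of the 77 were lower, where 36.6% of all genes were, and 6 were higher, where 35.2% were. The largest fall was that of Cdc25a, the phosphatase of S phase entry, from 25.4, 23.8 and 26 FPKM to 7.87, 7.48 and 7.02 FPKM (-1.74 ± 0.09, limma adjusted p = 4.8e-07). Cdc25a and Cdc25b thus moved in opposite directions in these CTL. Trip13, a checkpoint ATPase (-1.61 ± 0.15), and Haus7 (-1.48 ± 0.13), an augmin subunit, were next.

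Of 15 genes for subunits and partners of the anaphase promoting complex, only Ube2s passed both limits after activation (6.67%, where 25.0% of all genes rose). Ube2s, the E2 that extends ubiquitin chains, rose from 25.2, 28.5 and 24.5 FPKM to 126.2, 111.3 and 111.8 FPKM (2.16 ± 0.10, limma adjusted p = 4.9e-09). On the adjusted p alone 11 of the 15 were higher and 3 lower, where 40.9% and 39.8% of all genes were. Without IL-2 only Ube2s passed both limits (6.67%, where 13.9% of all genes fell). It fell from 120.4, 137.2 and 153.1 FPKM to 45.9, 43.3 and 33.4 FPKM (-1.75 ± 0.13, limma adjusted p = 2.8e-06). With no fold limit 8 of the 15 were lower and 2 higher without IL-2, where 36.6% and 35.2% of all genes were. With PI3Kdi 0 of the 15 passed both limits, with Ube2s at -0.65 ± 0.10 (limma adjusted p = 0.00154). On the adjusted p alone 3 of the 15 were lower and 0 higher, where 8.19% and 9.35% of all genes were. The limma fit gave the same counts at an unadjusted p under 0.05. Of 13 cohesin genes Esco2, the acetyltransferase of S phase, rose after activation (7.26 ± 0.22), or 7.69% where 25.0% of all genes rose. The loader subunits Nipbl (-1.16 ± 0.11) and Mau2 (-1.56 ± 0.13) fell, or 15.4% where 23.7% of all genes fell. Both shares were below those of all genes, and 0 of the 13 passed both limits with PI3Kdi or without IL-2. In the limma fit with PI3Kdi 1 was lower and 0 higher at an unadjusted p under 0.05, and without IL-2 5 were higher and 5 lower. On the adjusted p alone 5 were higher and 4 lower without IL-2, where 35.2% and 36.6% of all genes were.

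Of 17 genes of the MuvB, B-MYB and pocket protein list, Mybl2 (B-MYB), Mybl1, E2f4 and Tfdp1 rose after activation. Rbl2 (p130, a pocket protein of the DREAM complex) fell. The 4 of 17 that rose (23.5%) are close to the 25.0% of all genes that did, and the 1 that fell (5.88%) is below the 23.7% of all genes that did. Mybl2 went from 0.54, 0.46 and 0.62 FPKM to 40.8, 40.7 and 35.4 FPKM and was at 35.6, 31.3 and 32.2 FPKM with PI3Kdi (-0.24 ± 0.12, limma adjusted p = 0.215). Rbl2 went from 36.5, 37.9 and 36.9 FPKM to 6.97, 6.27 and 5.46 FPKM, and was at 8.08, 7.52 and 8.86 FPKM with PI3Kdi (0.39 ± 0.11, adjusted p = 0.0363). Rbl1, another pocket protein, was higher after activation on the adjusted p alone (0.45 ± 0.09, limma adjusted p = 0.00084). It was also higher with PI3Kdi (0.38 ± 0.09, limma adjusted p = 0.0169). With PI3Kdi 0 of the 17 passed both limits. On the adjusted p alone 3 were higher and 1 lower, where 9.35% and 8.19% of all genes were. At an unadjusted p under 0.05 the limma fit had 3 higher and 4 lower. Without IL-2 Mybl2 fell from 21.1, 26 and 27.9 FPKM to 8.16, 8.12 and 5.59 FPKM (-1.77 ± 0.16, limma adjusted p = 1e-05), and Rbl2 rose from 37.1, 35.3 and 27.8 FPKM to 80.3, 81.1 and 68.7 FPKM (1.20 ± 0.12, adjusted p = 1.5e-05). Tfdp2 also rose, and E2f4 and Tfdp1 also fell, so that 11.8% of the list rose and 17.6% fell, near the 14.3% and 13.9% of all genes, and its median was -0.22.

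All 6 CD8 T cell markers had rows, and their summed level ranged from 841.7 to 878.9 FPKM in TCR activated cells, the lowest group, to between 3699 and 4041 FPKM in naïve cells. B cell markers (5 of 6 with a row, Pax5 without) summed to 4.92 to 7.82 FPKM in TCR activated cells and 3.33 to 4.63 FPKM with PI3Kdi, and 3 of the 5 fell with PI3Kdi. In CTL the only B cell marker with a row, Cd79b, went from 2.74 to 6.3 FPKM with IL-2 to 10.8 to 20.6 FPKM without it, and 3 of 7 myeloid markers with a row from 7.97 to 11.4 FPKM to 25.0 to 31.6 FPKM, with Lyz2, Csf1r, Cd14 and Adgre1 without a row. Of 5 dendritic cell markers only Itgax had a row in the CTL table, at 0.21 to 0.39 FPKM with and 3.67 to 5.17 FPKM without IL-2, and only Zbtb46 in the other table, at 0.48 to 0.64 FPKM in TCR activated cells and 0.07 to 0.16 FPKM with PI3Kdi. CD4 markers summed to at most 1.48 FPKM in the first table, where Cd4 had no row, and to 16.8 to 21.4 FPKM with and 25.6 to 30.2 FPKM without IL-2 in CTL, where Foxp3 had no row. Most of the CTL sum was Zbtb7b (16.7 to 21 FPKM with and 24.6 to 28.3 FPKM without IL-2), and Cd4 itself was at 0.05 to 0.39 FPKM with and 0.92 to 1.92 FPKM without IL-2. NK markers were Klrb1c alone, at most 3.41 FPKM in CTL, and red cell markers had no row. The part of these cells in the results was not tested.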

How the data were processed

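RNA sequencing of 15 libraries was analysed from 2 tables, with 9 libraries of naïve and activated cells and 6 of CTL. The authors deposited FPKM: reads were aligned with STAR 2.5.2b to mm10, counted per gene with subread 1.5.1, filtered with filterByExpr, scaled by TMM in edgeR and divided by exon length. For the CTL table the same steps were assumed, since the methods do not describe it. The libraries were made with a stranded kit; the strand setting of the counting is not given in the sources used here, and 22 of the 56 genes overlap another RefSeq gene, where shared reads may be split or dropped. Values are rounded to 2 decimals, and 46 to 252 blank cells per library of the first table were read as 0.

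With limma 3.58.1 in R 4.3.3, log2(FPKM + 0.1) was modelled once per table with an intensity trend in the prior, with Benjamini-Hochberg adjustment over all genes; FPKM are not counts, so the voom weights of the study could not be used. Changes were called at an adjusted p under 0.05 and a fold change above 2 or below 0.5. Values in every library were given for genes set by a rule: the highest gene of each role after activation, the 3 largest and 3 smallest changes in each comparison, genes called with PI3Kdi, genes not called after activation, the 5 largest and 5 smallest changes among CTL genes not called lower, and the 3 largest changes of each other list; partner genes were added after their values were seen. The members and lists were chosen with earlier results of these data known. The fits were first run on simulated data with independent noise for each gene. Of 200 genes given log2 changes of 2 or 3 in size, 193 to 200 were called in the right direction. No change near the fold limit was simulated. Python 3.11.15, pandas 2.3.3, numpy 2.4.6 and scipy 1.17.1 were used. Promoters came from RefSeq GRCm38.p6, and all 56 genes matched by Entrez ID.

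Same-numbered libraries of the first table were taken to come from 1 pool of mice divided between conditions, as the protocol describes. The main fits did not use this pairing. With a replicate block 29 of the 56 mRNA passed the adjusted p alone with PI3Kdi, where 25 did in the main fit. Deviations from the group means correlated at r = 0.20 to 0.51 across genes for same-numbered TCR and PI3Kdi libraries and at 0.12 to 0.26 for CTL, and at -0.18 to 0.23 for naïve and TCR libraries. The deposited files give no read totals. The spacing of low values of short genes, searched between 6000000 and 20000000 reads, gave 9900000 to 14800000 reads per library. Multiples of such a value can match as well, so this is approximate and no detection limit was taken from it. Alternatives were other pseudocounts, a filter on mean FPKM, median scaling, a replicate block, no intensity trend, other fold limits, the compared groups alone, and leaving out replicates; leaving out single libraries was chosen after seeing the data.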

Additional observations from a re-analysis of the deposited data

How the results depend on the processing

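The 53 and 51 mRNA that rose after activation without and with PI3Kdi stayed within 1.5 times of those counts under every alternative run. Counts with PI3Kdi and without IL-2 depended on the fold limit. Against TCR activation, 4 mRNA fell with PI3Kdi, 17 with a fold limit of 1.5 and 25 with no fold limit. Of all 11262 genes, 237, 433 and 922 fell at these limits. Leaving out 1 replicate gave 0 to 9 of the 56. Without TCR replicate 1 alone the count was 1, and without PI3Kdi replicate 2 alone it was 0. Against naïve cells, 1 mRNA was lower with PI3Kdi at a fold limit of 1.5 and 3 with no fold limit. Of all genes, 3486 and 4394 were lower at these 2 limits. In CTL without IL-2, 2 fell, 14 with a fold limit of 1.5 and 35 with no fold limit. Of all 11211 genes, 1561, 2833 and 4108 fell at these limits. Leaving out 1 replicate gave 0 to 4 of the 56. The count was 0 without the CTL library lacking IL-2 of replicate 3 alone. It was 4 without the CTL library with IL-2 of replicate 1 alone. With no fold limit 4 rose, where 1 did otherwise. Over all genes, 579 changed with PI3Kdi, 311 with a pseudocount of 1, 323 without replicate 2, 1120 with a fold limit of 1.5 and 1975 with none; the 5490, 5063 and 3166 called in the other comparisons became 9096, 8906 and 8056 with no fold limit. With a pseudocount of 1 or 0.01 the median log2 fold change was 4.28 or 5.96 after activation and 3.74 or 5.41 with PI3Kdi against naïve cells. The replicate block gave 53, 4, 51 and 2 mRNA in the main direction of the 4 comparisons and changed no call of the 56. Among values that did not pass the test, signs turned with 1 replicate left out for Pttg1 after activation (-0.09 to 0.10), for Ncapg (-0.33 to 0.03), Cdca5 (-0.10 to 0.22), Ncaph (-0.05 to 0.10), Cdc25b (-0.28 to 0.03) and Ttk (-0.26 to 0.00) with PI3Kdi, and in CTL for Ccnb2 (-0.03 to 0.13), Kif2c (-0.19 to 0.01) and Kif22 (-0.14 to 0.16). Without TCR replicate 1 alone Cdc25b was at 0.02 and Cdca5 at -0.01, without the library lacking IL-2 of replicate 3 alone Kif22 was at 0.11, and with median scaling it was at 0.00. The cause was not tested. The number of libraries and the unknown read totals limit what a value near the fold limit can show.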
